A study of Mus musculus with 4 samples.

Results

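Genes of the proteasome subunits were followed in 4 mouse melanoma lines. They were chosen by symbol alone: Psma, Psmb, Psmc, Psmd, Psme or Psmf followed by a number, leaving out Psmb8, Psmb9 and Psmb10. This rule gave 37 genes with 41 probes, of 15674 genes with a symbol and 33012 probes on the array. There were 7 alpha, 7 beta, 6 ATPase and 12 non-ATPase genes, and 5 activators and inhibitors. Psmd5, Psmd9 and Psmd10, counted with the non-ATPases, are assembly chaperones of the cap rather than parts of it.

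The proteasome is the protease complex that degrades ubiquitin-tagged proteins in the cytoplasm and nucleus. Its 20S core is a barrel of stacked rings, in which alpha subunits (Psma genes) form the outer rings and gate the entrance, and beta subunits (Psmb genes) form the inner rings and carry the proteolytic sites. The 19S cap binds the barrel: its ATPases (Psmc genes) unfold substrates and push them into the core, while its non-ATPase subunits (Psmd genes) bind and remove ubiquitin. Other activators (Psme genes) can take the place of the cap, and Psmf1 is an inhibitor of the core. After exposure to interferon, the subunits Psmb8, Psmb9 and Psmb10 replace the constitutive catalytic subunits to form the immunoproteasome, which favours peptides for antigen presentation. In tumor cells the constitutive genes are typically expressed together at high level.

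RNA of 4 cultured mouse melanoma lines was measured by chemiluminescence on Applied Biosystems Mouse Genome Survey arrays, and the sample labels give 1 array per line. B16 (B16F1 in the culture protocol) is the parental melanoma line, grown in vitro without injection. For B16-RI, parental cells were injected once (1 round) into the back skin of C57BL6 mice, intradermally, and metastatic cells of the lymph nodes were taken back into culture. B16-RII came from lymph node metastases and B16-RIIL from lung metastases after B16-RI had been injected in a second round. All lines were kept in medium with 20% serum for up to 10 passages before RNA isolation, and each RNA was a pool of 2 passage numbers. The labels do not say how many mice or cell clones stood behind a line, and the parental array is the only control. Second arrays, which no sample label lists, were not used, so there was no replicate error and no test. In its place, the disagreement between probes of the same gene was used: for the 546 genes with several detected probes, the standard deviation of a log2 difference from B16 between probes was 0.32 in B16-RI, 0.36 in B16-RII and 0.34 in B16-RIIL. It covers probe and spot error but not error between cultures or hybridizations. For the 137 brighter genes among them it was 0.14, 0.21 and 0.25.

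Detection of a probe required an analyzer flag no higher than 5000 and a signal-to-noise value, written S/N, no lower than 3. Between 13872 and 14855 probes were detected per array. Median raw signal was 435, 451, 619 and 554 in B16, B16-RI, B16-RII and B16-RIIL. The deposited normalized signal had been scaled separately in 2 sets of probes, whose medians in B16-RI lay 0.39 and 0.07 above B16, so all differences below were taken after centring each set on its own median. Since probes differ in binding, levels were compared between arrays and not between genes. Of 8 melanocyte markers, all 6 on the array were detected in every line. Of 5 macrophage markers 1 was detected in B16 and 0 in the passaged lines, of 4 endothelial markers 0 were detected on any array, of 5 lymphocyte markers 1 or 2 were detected per line, and of 5 fibroblast markers 1 to 3. The summed deposited signal, which is not centred, was 6730, 7934, 8254 and 8006 for the melanocyte list in B16, B16-RI, B16-RII and B16-RIIL, whereas the centred median difference of its detected markers from B16 was -0.16, -0.16 and -0.10 in the passaged lines. The sum of the lymphocyte list was 4.29, 5.08, 6.08 and 5.51 in the same order. The sum of the fibroblast list was 11.9, 18.6, 11.2 and 21.1. Among markers detected on every array, Mitf, a melanocyte transcription factor, differed from B16 by -0.69, -0.41 and -0.62 in B16-RI, B16-RII and B16-RIIL, and the collagen gene Col1a2 by 0.85, -0.20 and 0.88. The lymphocyte marker Lck, a T cell kinase, differed by 1.27, 1.44 and 0.52, with log2 signals of 0.25, 1.52, 1.68 and 0.77 and S/N of 4.14, 7.53, 22.4 and 4.80. The part of these markers in the proteasome values was not tested. Comparisons of the 3 passaged lines with B16 share the same parental array.

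Most of the proteasome was detected in all lines. On every array, 30 of the 37 genes were detected (6 of 7 alpha, 7 of 7 beta, 6 of 6 ATPase and 8 of 12 non-ATPase genes, and 3 of 5 activators and inhibitors). Over all genes on the array the share detected on the 4 arrays was 47.5%. By array, 37, 33, 35 and 35 of the 41 member probes were detected in B16, B16-RI, B16-RII and B16-RIIL. Since RNA of whole cultures was measured, fewer cells with a transcript and less of it per cell cannot be told apart. The plot of signals of all 37 genes shows most genes with their 4 lines close together.

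**Figure D1:**
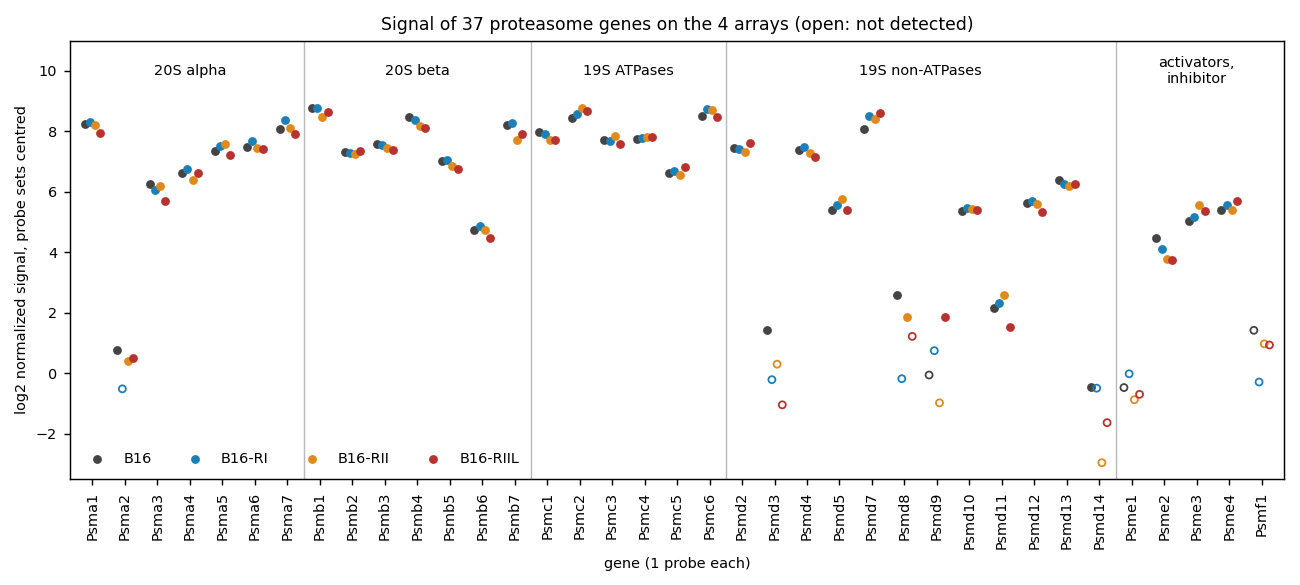
Log2 normalized signal (y axis, each probe set centred) of the 37 proteasome genes (x axis, 1 probe each, by subunit class) in B16, B16-RI, B16-RII and B16-RIIL. Each point is 1 array, and open points were not detected. For 30 genes all points are filled, and heights of different genes are not comparable because probes differ.

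Log2 signals are given throughout in the order B16, B16-RI, B16-RII and B16-RIIL, on the scale centred per probe set. Psmc3ip shares the letters but encodes a recombination cofactor and was not counted (4.40, 4.56, 4.60 and 4.04). Psmd6, a cap subunit that the array lists under the older symbol 2400006A19Rik and the rule therefore missed, gave 7.30, 7.47, 7.47 and 7.03 in the same order. Psmb11, a thymus-specific beta subunit listed as 5830406J20Rik, was not detected on any array.

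Proteasome genes varied little between the 4 lines. The range of a gene over the 4 arrays had a median of 0.35 on the log2 scale for the 30 detected members (quartiles 0.27 and 0.39), against 0.47 for all 7441 detected genes. Brightness bears on this: for the 2105 genes at least as bright as the lower quartile of the members the median range was 0.37. In 28 of 30 members (93.3%) the range stayed under 1.5-fold, compared with 64.8% of all genes and 81.4% of the bright genes. Psmb2, a beta subunit, spanned 0.08, Psmc4, an ATPase, 0.08 and Psmd10, a cap chaperone also known as gankyrin, 0.10. These were the smallest ranges among the 30 members. Psmb2 measured 7.31, 7.30, 7.27 and 7.34 in B16, B16-RI, B16-RII and B16-RIIL. Psmc4 measured 7.75, 7.77, 7.82 and 7.83, and Psmd10 measured 5.36, 5.47, 5.44 and 5.40. In these genes all 4 lines differed by less than the spread between probes.

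In B16-RI the median difference from B16 was 0.08 for the members, 0.03 for all genes and 0.10 for the bright genes. It was -0.04, 0.02 and 0.07 in B16-RII, and -0.12, -0.0016 and -0.0043 in B16-RIIL. Members above and below the all-gene median numbered 18 and 12 in B16-RI, 11 and 19 in B16-RII, and 11 and 19 in B16-RIIL. Less the all-gene median the member medians were 0.05, -0.06 and -0.12 in B16-RI, B16-RII and B16-RIIL. Under quantile normalization they were -0.095, -0.18 and -0.26, and without a detection filter 0.07, 0.03 and -0.07, so the direction in B16-RI and B16-RII and the size in all lines depend on the processing. Median scaling and 75th percentile scaling gave -0.24 in B16-RIIL. Against B16-RII, B16-RIIL had a member median of -0.07, an all-gene median of -0.03 and a bright-gene median of -0.08.

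Few members passed a 1.5-fold limit relative to the all-gene median. In B16-RI 0 of 30 members were above it and 0 below, where the background over all genes was 5.07% above and 8.67% below, and 1.81% and 2.47% over bright genes. In B16-RII 0 were above (background 6.24%, bright 3.47%) and 1, Psme2, was below (8.61%, bright 2.23%). In B16-RIIL 0 were above (7.77%, bright 5.04%) and 2, Psme2 and Psmd11, were below (8.17%, bright 3.28%). Between B16-RIIL and B16-RII 0 were above (5.31%, bright 1.57%) and 1, Psmd11, was below (4.0%, bright 2.04%). Differences within 0.25 on the log2 scale were found for 27 of 30 members in B16-RI (90.0%), against 54.4% of all genes and 66.7% of bright genes. In B16-RII the shares were 63.3%, 51.5% and 62.6%, and in B16-RIIL 60.0%, 48.6% and 58.7%. On the centred scale the member share was thus above that of the bright genes in B16-RI. In the later lines it was within a few percentage points of the bright-gene share. For this description 1 array per line allows no test. The cumulative plot of differences shows a steep curve in B16-RI. Shares were not counted under other scalings. Under quantile normalization in B16-RI, less the all-gene median, Psmb2, Psmb3 and Psmc1 lay at -0.31, -0.32 and -0.32. Psmb6, Psmc6 and Psmd5 each lay at 0.30 there. These genes were within 0.25 as centred, whereas Psma7 moved inside it, to -0.0002.

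**Figure D2:**
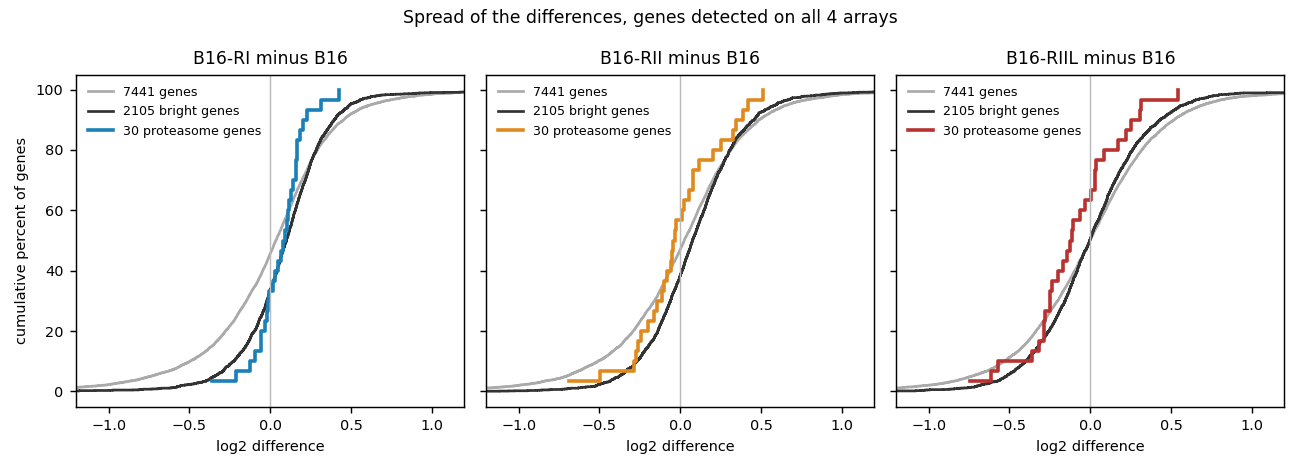
Cumulative percent of genes (y axis) by log2 difference from B16 (x axis, probe sets centred). Curves are for 30 proteasome genes, 2105 bright genes and 7441 genes detected on all 4 arrays. The proteasome curve is steepest in B16-RI, where 90.0% of members lie within 0.25, and lies to the left of both other curves around 0 in B16-RIIL.

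On the centred scale B16-RIIL was the line in which most members had their lowest signal. Of the 30 members 16 were lowest in B16-RIIL, 7 in B16, 7 in B16-RII and 0 in B16-RI, while over all genes the shares were 29.5%, 29.7%, 17.8% and 23.1%. The highest signal was found in B16-RI for 11 members, in B16 for 7, in B16-RII for 6 and in B16-RIIL for 6, while over all genes the shares were 26.1%, 25.7%, 22.1% and 26.0%. Members share arrays, so these counts describe 4 arrays and are not independent observations. They were made on the centred scale only, and not over the bright genes. Under quantile normalization within each probe set, B16-RIIL had a member median of 0.01 against B16-RII, less the all-gene median. Only 5 of 13 core genes and 6 of 14 cap genes were below there, so fewer members were lowest in B16-RIIL. Under quantile normalization Psmb2 was lowest in B16-RI, at -0.311 against -0.306 in B16-RII.

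Among the alpha subunits, differences from B16 had a median of 0.14 in B16-RI, -0.04 in B16-RII and -0.14 in B16-RIIL. Less the all-gene median the B16-RI value was 0.11, and it turned negative under all 5 other scalings (-0.12 to -0.02). In B16-RII and B16-RIIL the values were -0.06 and -0.14, and over all processing tried they ran from -0.25 to 0.06 and from -0.37 to -0.07. Psma7 measured 8.08, 8.39, 8.13 and 7.91 in B16, B16-RI, B16-RII and B16-RIIL, and was the alpha gene that stood highest over B16 in B16-RI, by 0.31. Psma5 measured 7.34, 7.51, 7.60 and 7.23, and was highest in B16-RII. Psma4 measured 6.63, 6.75, 6.39 and 6.63, so that B16 and B16-RIIL were level. All of these alpha subunits form the ring that gates the core. Psma1 (8.24, 8.33, 8.22 and 7.96) and Psma6 (7.49, 7.69, 7.44 and 7.42) were highest in B16-RI and lowest in B16-RIIL.

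Psma3, another alpha subunit, had 3 detected probes, and they did not give the same picture. Its brightest probe measured 6.27, 6.06, 6.18 and 5.70 in B16, B16-RI, B16-RII and B16-RIIL. The others measured 5.71, 5.76, 5.90 and 5.61, and 5.68, 5.61, 5.55 and 5.66. The difference of B16-RIIL from B16 therefore ran from -0.57 to -0.02 depending on the probe. Psma2 gave signals near the detection limit, with S/N of 3.94, 2.35, 5.02 and 4.74. Its log2 signals were 0.76, -0.52, 0.39 and 0.50, and the probe was detected in B16, B16-RII and B16-RIIL but not in B16-RI. B16 was at least 2.42-fold above B16-RI for this probe, a bound set by the dim value.

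Catalysis takes place on 3 beta subunits. Psmb5 carries the chymotrypsin-like site, Psmb6 the caspase-like site and Psmb7 the trypsin-like site. Psmb5 measured 7.01, 7.05, 6.85 and 6.77 in B16, B16-RI, B16-RII and B16-RIIL by its brighter probe and 5.71, 5.60, 5.19 and 5.50 by the other. Both probes were below B16 in the later lines, by 0.16 to 0.52 in B16-RII and by 0.22 to 0.25 in B16-RIIL. Under other scalings the B16-RIIL value of the brighter probe less the all-gene median reached 0.03. Psmb6 measured 4.73, 4.87, 4.75 and 4.49. Its range over the lines was 0.39, B16-RIIL being the lowest. Psmb7 measured 8.22, 8.27, 7.73 and 7.91. It was level in B16 and B16-RI and stood 0.50 and 0.32 lower in B16-RII and B16-RIIL, both sizes over the spread between probes of bright genes.

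Promoters of the members were searched for 3 motifs on both strands in the RefSeq windows from 250 bases before to 50 after the start (GRCm38.p6), which held 34 promoters of 31 members. The antioxidant response element core TGACNNNGC is the kind of site bound by the transcription factors Nfe2l1 and Nfe2l2, known regulators of proteasome genes. It was found in 6 of 34 member promoters (17.6%), those of Psmb5, Psmb6, Psmc6, Psmd12, Psmd9 and Psme4, and in 12.4% of all 32851 promoters. A CCAAT box was found in 12 (35.3%) against 37.4%, and the interferon-stimulated response element, which contains GAAA in tandem, in 4 (11.8%), those of Psmb3, Psmd4, Psmd9 and Psme1, against 3.44%. None of the 3 searches used the array values, the motifs can overlap, and a match describes letters only. The windows shown are those of the catalytic subunits that held the first motif, which capitals mark.
Psmb5, minus strand, chr14:54618019-54618057, motif 47 bases before the start: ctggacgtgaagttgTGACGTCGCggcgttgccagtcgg
Psmb6, plus strand, chr11:70525333-70525371, motif 9 bases before the start: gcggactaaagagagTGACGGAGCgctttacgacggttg

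The other beta subunits are structural. Psmb1 measured 8.77, 8.76, 8.49 and 8.64, and Psmb3 7.59, 7.56, 7.45 and 7.39, in B16, B16-RI, B16-RII and B16-RIIL. A second Psmb3 probe was not detected on any array. Psmb4 measured 8.47, 8.38, 8.20 and 8.11, and was below B16 in every passaged line, by -0.36 on the log2 scale in B16-RIIL. In B16-RI its sign turned under other scalings, to at most 0.08 over the all-gene median. Differences of the beta class had a median of -0.01 in B16-RI, -0.16 in B16-RII and -0.25 in B16-RIIL. Less the all-gene median these were -0.04, -0.19 and -0.24, and over all processing tried they ran from -0.26 to -0.0068, from -0.31 to -0.04 and from -0.25 to -0.14. Below the all-gene median were 5 of 7 beta genes in B16-RI, 7 of 7 in B16-RII and 6 of 7 in B16-RIIL. The exception in B16-RIIL was Psmb2. Set against the spread between probes over all 546 genes, Psmb7 in B16-RII and Psmb4 in B16-RIIL were the beta genes with a larger difference. In B16-RI 0 were. This holds on the centred scale. Less the all-gene median, Psmb4 in B16-RIIL shrank to -0.06 under quantile normalization, whereas Psmb7 there reached -0.59 under median scaling. How far single directions depend on the scaling was counted over all 30 members: less the all-gene median, 36 of 90 differences from B16 turned sign under at least 1 of 5 other scalings. The members that kept their sign in all 3 lines were 6, namely Psmb1, Psmb3, Psmc1 and Psme2 below and Psmd7 and Psme3 above. The plot of differences by class shows the beta genes mostly to the left of 0 in the later lines.

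**Figure D3:**
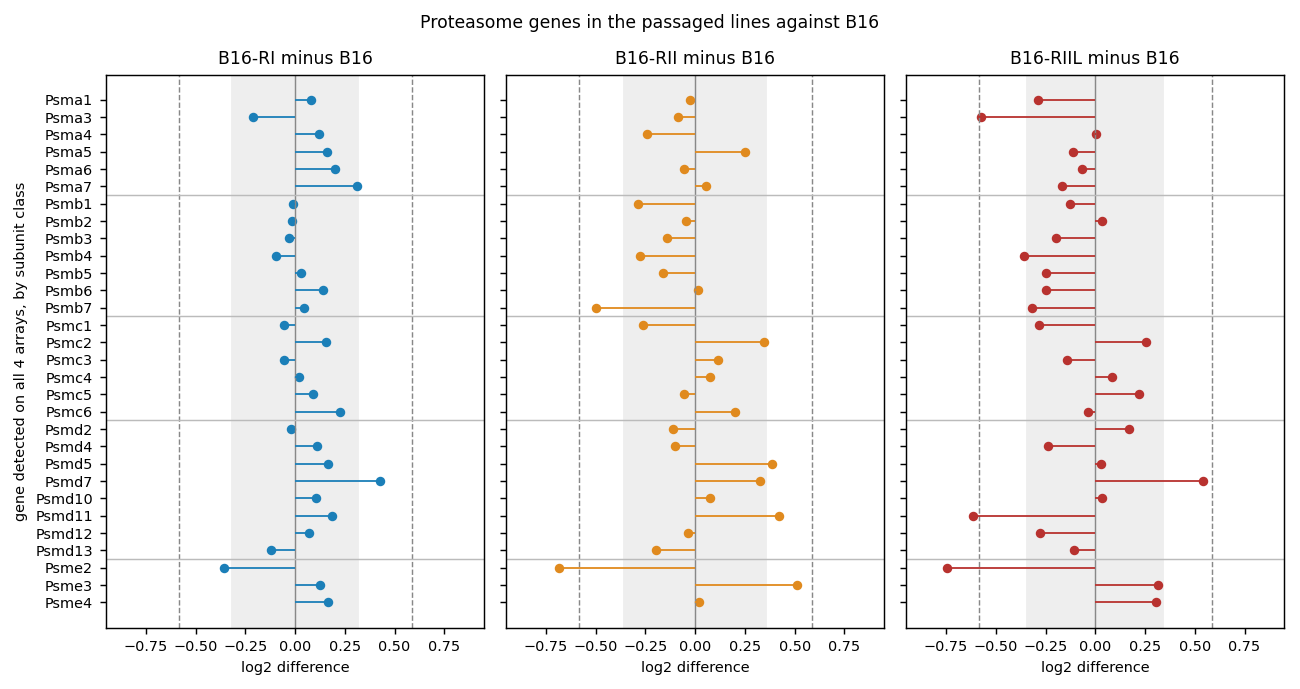
Log2 difference from B16 (x axis, probe sets centred) of the 30 proteasome genes detected on all arrays (y axis, by subunit class) in B16-RI, B16-RII and B16-RIIL, 1 array per line. Grey bands span plus and minus 1 standard deviation between probes of the same gene and dashed lines mark 1.5-fold; Psme2 passes it in B16-RII and B16-RIIL, and Psmd11 in B16-RIIL.

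The ATPases of the cap had class medians of 0.05, 0.10 and 0.02 in B16-RI, B16-RII and B16-RIIL. Less the all-gene median these were 0.02, 0.07 and 0.03, and over all processing tried they ran from -0.06 to 0.16, from -0.01 to 0.21 and from 0.02 to 0.21. Psmc2 measured 8.43, 8.58, 8.77 and 8.68 in B16 and these lines, and was above B16 in each passaged line, though its sign in B16-RI and B16-RIIL turned under other scalings (down to -0.11 and -0.02). Psmc1 measured 7.98, 7.93, 7.72 and 7.70 and was below B16 in each. These ATPases of the same ring thus lay on opposite sides of B16 in B16-RII, at 0.35 and -0.26. Psmc5 measured 6.61, 6.70, 6.56 and 6.83 and was highest in B16-RIIL. Psmc6 (8.51, 8.73, 8.71 and 8.47) and Psmc3 (7.73, 7.67, 7.84 and 7.59) stayed within 0.26 over the 4 lines.

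Psmd7, a scaffold subunit that pairs with the deubiquitinating subunit Psmd14, had the highest difference in B16-RI and in B16-RIIL among the 30 members detected on all arrays. It measured 8.08 in B16, 8.51 in B16-RI, 8.41 in B16-RII and 8.62 in B16-RIIL, with S/N from 94.4 to 111. The 3 passaged lines were all above B16, by 0.43, 0.32 and 0.54, each over the spread between probes of bright genes and under 1.5-fold. Without centring of the probe sets and less the all-gene median, its differences were 0.60 in B16-RI, 0.30 in B16-RII and 0.80 in B16-RIIL, so it passed 1.5-fold in 2 of the 3 lines. Psmd7 lies on chromosome 8 in the RefSeq annotation (GRCm38.p6), the only member there. The other 401 detected genes placed on chromosome 8 had median differences of 0.05, 0.09 and 0.36 in B16-RI, B16-RII and B16-RIIL. As high as Psmd7 or higher were 51, 80 and 132 of these genes. The part of the chromosome in the Psmd7 values was not tested.

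Psmd11, a scaffold subunit of the cap lid, varied most among the 30 members detected on all arrays. It measured 2.15, 2.34, 2.57 and 1.54 in B16, B16-RI, B16-RII and B16-RIIL, with S/N of 9.37, 8.01, 20.3 and 5.83. The signal was higher than B16 in B16-RI and B16-RII and lower in B16-RIIL, by 0.19, 0.42 and -0.61, the sign in B16-RI turning under another scaling (-0.03 less the all-gene median). Between B16-RIIL and B16-RII the difference was -1.03, the only difference past 2-fold in any comparison among the 30 members detected on all arrays. Over the scalings tried, its B16-RIIL value less the all-gene median ran from -0.89 to -0.59. Its probe was dim, and probes of all brightness disagreed more (0.34 in B16-RIIL) than those of the brighter genes alone (0.25).

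The remaining non-ATPase genes detected on every array differed less. Psmd2, which receives ubiquitin-like shuttle proteins, measured 7.44, 7.43, 7.33 and 7.62 in B16, B16-RI, B16-RII and B16-RIIL. Psmd4, a ubiquitin receptor, measured 7.39, 7.50, 7.28 and 7.15. It was highest in B16-RI and lowest in B16-RIIL. Psmd12, a lid subunit, followed the same order of extremes at 5.62, 5.69, 5.59 and 5.34. Psmd13, also of the lid, measured 6.38, 6.26, 6.19 and 6.28 and was below B16 in all passaged lines as centred, but above the all-gene median in B16-RI and B16-RIIL under some other scalings (up to 0.06 and 0.17). The chaperone Psmd5 measured 5.39, 5.55, 5.78 and 5.41, standing 0.39 above B16 in B16-RII.

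Another 4 Psmd genes were not detected on all arrays. Psmd8 measured 2.58, -0.18, 1.86 and 1.22 and was detected in B16 and B16-RII, so that B16 was at least 6.78-fold above B16-RI and at least 2.57-fold above B16-RIIL. Psmd3 measured 1.43, -0.21, 0.30 and -1.05 and was detected in B16, where S/N was 3.42, close to the limit. Both are subunits of the cap lid, and both probes were brightest in the parental line. For Psmd3 the parental signal exceeded that of B16-RI at least 3.13-fold, of B16-RII at least 2.20-fold and of B16-RIIL at least 5.58-fold. Psmd14, the deubiquitinase of the lid, measured -0.45, -0.49, -2.96 and -1.64 and was detected in B16 at S/N 3.99. B16 and B16-RI had nearly the same Psmd14 signal although the probe passed the limit in B16 alone. Psmd9, a chaperone, went the other way, at -0.06, 0.75, -0.98 and 1.87, and was detected in B16-RIIL with S/N 10.2. B16-RIIL was at least 3.82-fold above B16 and at least 7.22-fold above B16-RII for Psmd9.

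The 13 core genes were set beside the 14 cap genes, a class that here holds the chaperones Psmd5 and Psmd10. Core medians were 0.05, -0.08 and -0.20 in B16-RI, B16-RII and B16-RIIL, and cap medians 0.10, 0.08 and -0.0044. Core genes below the all-gene median numbered 6, 11 and 11 of 13, and cap genes 5, 6 and 7 of 14. The core median was below the cap median in every setting that held these 13 and 14 genes, by -0.34 to -0.13 in B16-RII and by -0.40 to -0.17 in B16-RIIL. Without a detection filter, which gave 14 core and 18 cap genes, the gaps were -0.07 and -0.15. Without the chaperones the 12 cap genes had medians of 0.08, 0.02 and -0.07, and with Psmd6 added to these 0.09, 0.08 and -0.11. Within the 2 probe sets the order was not the same. Among probes of set 1, 4 core genes had a median of -0.30 and 7 cap genes 0.03 in B16-RIIL. In set 2, 9 core genes had -0.13 and 7 cap genes -0.24, the reverse order. In B16-RII set 1 gave -0.12 and 0.11, and set 2 gave -0.05 and -0.03. The order of core and cap in B16-RIIL thus rested on the probes of set 1, as the plot of medians by processing shows.

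**Figure D4:**
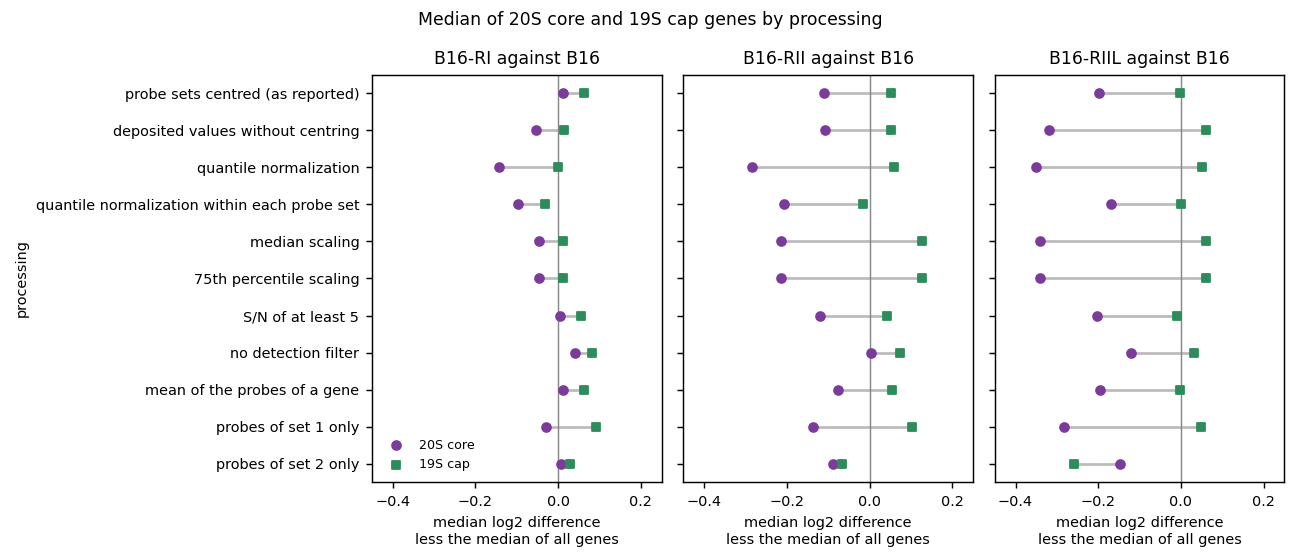
Median log2 difference from B16 less the median of all genes (x axis) of the 20S core genes (circles) and 19S cap genes (squares) under each processing (y axis), with the bottom lines restricted to the probes of 1 set and taken less that set's own all-gene median. The core lies left of the cap in all full sets of genes, and right of it for the probes of set 2 in B16-RIIL.

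The activators lay on different sides of B16. Psme2, the beta subunit of the interferon-inducible 11S activator PA28, measured 4.47, 4.11, 3.79 and 3.73 in B16, B16-RI, B16-RII and B16-RIIL, with S/N from 6.25 to 20.3. Its signal was lower in each passaged line than in B16, by -0.36, -0.69 and -0.74 on the log2 scale, and was the lowest difference in all 3 among the 30 members detected on every array. Over the scalings tried and less the all-gene median, it was -0.57 to -0.39 in B16-RI, -0.89 to -0.71 in B16-RII and -1.06 to -0.74 in B16-RIIL. The probe carries the symbols of Psme2 and of its near-identical copy Psme2b, which it cannot tell apart. Psme1, the alpha subunit that assembles with Psme2, was not detected on any array, at -0.47, -0.02, -0.88 and -0.70. Nothing can therefore be said of the partner subunit.

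Psme3 encodes PA28 gamma, a nuclear activator that forms rings of its own and is not induced by interferon. It measured 5.05, 5.18, 5.56 and 5.36, with differences of 0.13, 0.51 and 0.31. Among the 30 members detected on all arrays it was the highest in B16-RII, and under quantile, median or 75th percentile scaling it passed 1.5-fold there. Psme4, which encodes the single-chain activator PA200, measured 5.39, 5.55, 5.41 and 5.69. It was 0.31 above B16 in B16-RIIL and less the all-gene median ran from -0.01 to 0.31 over the scalings, so its rank depends on the processing. Its promoter also held the antioxidant response element core, on the opposite strand and in capitals here, and is shown beside those of Psmb5 and Psmb6 because the gene lay on the other side of B16 in B16-RIIL on the centred scale, an order that rests on signs which turned under other scalings.
Psme4, plus strand, chr11:30771753-30771791, motif 7 bases before the start: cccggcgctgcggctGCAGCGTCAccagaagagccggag

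The inhibitor Psmf1 was not detected in any line, at 1.42, -0.29, 0.97 and 0.93.

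Of the immunoproteasome subunits, which the rule left out, Psmb8 was not detected on any array. Psmb9 was detected in B16-RI only, at S/N 3.48 and a log2 signal of 0.90, against -0.95 in B16. Psmb10 was detected in all lines at 3.36, 3.09, 2.84 and 3.20, with S/N from 13.2 to 27.4. On the centred scale it lay under the parental level in each derived line, by -0.28, -0.53 and -0.16. The values in B16-RI and B16-RIIL were within the spread between probes, 0.32 and 0.34. Its deposited signals, not centred, were 8.16, 8.88, 7.62 and 10.46. B16-RIIL thus stood above B16 there, by more than the all-gene median of 0.26. Other scalings were not run for Psmb10. The line with the lowest Psmb10 was B16-RII, whereas Psme2 was lowest in B16-RIIL. Psme1, Psme2 and the immunoproteasome subunits are known as interferon-inducible genes. The plot of activators and immunoproteasome subunits shows their signals line by line.

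**Figure D5:**
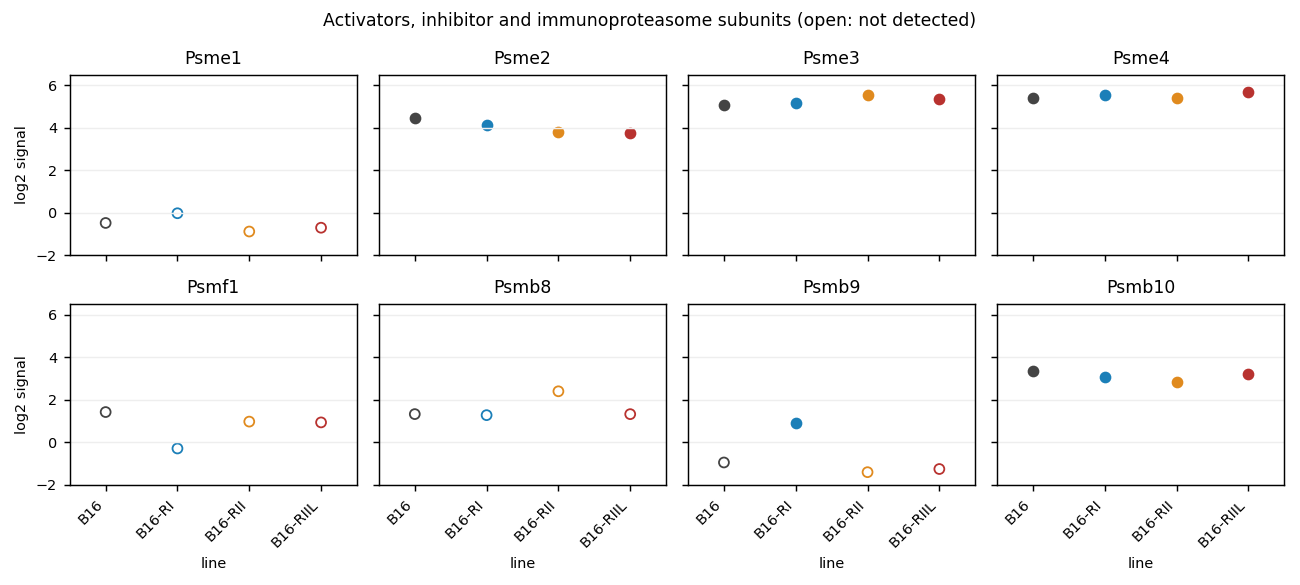
Log2 normalized signal (y axis, probe sets centred) of the activators Psme1 to Psme4, the inhibitor Psmf1 and the immunoproteasome subunits in B16, B16-RI, B16-RII and B16-RIIL (x axis), 1 array each, open points not detected. Psme2 goes from 4.47 in B16 to 3.73 in B16-RIIL, Psme3 is highest in B16-RII at 5.56, and Psme1, Psmf1 and Psmb8 have open points only.

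Of the 6 genes with the antioxidant response element core, 5 were detected on every array. In B16-RIIL they differed from B16 by -0.25 (Psmb5), -0.25 (Psmb6), -0.04 (Psmc6), -0.28 (Psmd12) and 0.31 (Psme4), and all but Psmd12 turned sign under another scaling. Nfe2l1, a transcription factor known to act through such sites, measured 3.16, 3.18, 2.73 and 3.28 in B16, B16-RI, B16-RII and B16-RIIL. It was lowest in B16-RII. Nfe2l2 was detected in B16-RI, B16-RII and B16-RIIL but not in B16, at -0.41, 1.58, 1.65 and 0.53. Its S/N was 6.37, 10.0 and 3.43 in the passaged lines.

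Other genes of the pathway were listed as 32 assembly chaperones, delivery factors, ubiquitin genes, regulators and immunoproteasome subunits. On the array 27 were found, and 21 were detected in all lines. Their median differences from B16 were 0.11, 0.06 and 0.10 in B16-RI, B16-RII and B16-RIIL. The 1.5-fold limit above B16 was passed by 0 of the 21 in B16-RI, and the limit below B16 by 0 in any line. Over all genes the shares above were 5.07%, 6.24% and 7.77% in B16-RI, B16-RII and B16-RIIL. The shares below were 8.67%, 8.61% and 8.17%. With 21 genes, a count of 0 is not far from these shares. Ube3c, a ubiquitin ligase that works on the proteasome, measured 4.26, 4.69, 4.88 and 4.93. It passed the limit in B16-RII and B16-RIIL, at 0.61 and 0.67 before the all-gene median was taken off. In B16-RII, where that median was 0.02, it passed only just. With the all-gene median at S/N of at least 5, which was 0.04, it fell under the limit there. Adrm1, the ubiquitin receptor of the cap, measured 5.41, 5.78, 5.95 and 5.97, above B16 in all passaged lines but under the limit. Pomp, the chaperone of core assembly, measured 7.39, 7.71, 7.50 and 7.17, highest in B16-RI and lowest in B16-RIIL.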

How the data were processed

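For RNA of 4 melanoma lines, the 1 labelled array per line was used. For each probe the authors deposited a raw and a normalized intensity, with a signal-to-noise score and a flag score per probe (16 columns used). Per the file headers no genome build is named. The deposited normalized intensity equalled the raw intensity divided by 2 constants per array, 1 for each of 2 probe sets (16524 and 16488 probes), and was not quantile normalized, although the methods name that step. The number of arrays limits the precision. Columns of second (B) arrays of the lines (20 with per-sample values) belong to no labelled sample. They were left unused, although the design text speaks of duplicates. Ratio and log2 columns made by the authors, which hold their own comparisons or transformed signals, were not used either.

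Here, log2 of the normalized signal was centred per probe set on its median over probes detected on all 4 arrays (signal-to-noise of at least 3, flag of at most 5000), without a pseudocount. Each gene was represented by its brightest probe detected on all arrays, and 1.5-fold counts were taken less the all-gene median. A bound for an undetected probe was set by its own signal, or by the dimmest detected probe of the same array where that was brighter. Members and lists were chosen with earlier results of these data known. The genes named by rule were the catalytic beta subunits, activators, inhibitor and immunoproteasome subunits, members past 1.5-fold, the 5 highest and the 5 lowest in B16-RIIL, members not detected on an array, members with discordant probes and pathway genes past 1.5-fold, of which 1 is not reported here; others were added after their values were seen. The bright genes, the grouping into core and cap and its variants without chaperones or with Psmd6 were also added after seeing the data. Computation used Python 3.11.15, numpy 2.4.6, pandas 2.3.3 and matplotlib 3.10.9, and was tested on simulated data.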

Additional observations from a re-analysis of the deposited data

How the results depend on the processing

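Values here are less the all-gene median, which itself lay at 0.22, 0.45 and 0.26 in B16-RI, B16-RII and B16-RIIL in the deposited values without centring. Of 40 alternative member medians 35 moved by at most 0.1 on the log2 scale. The other 5 were -0.095 in B16-RI, -0.18 in B16-RII and -0.26 in B16-RIIL under quantile normalization, and -0.24 in B16-RIIL under median and under 75th percentile scaling. Of 224 class medians 149 moved by at most 0.1, and no member called past 1.5-fold changed direction. Of 600 gene values 599 moved by no more than the spread between probes over all 546 genes. That spread was 0.30 to 0.36, wider than most member differences, so few values could move past it. Within it, Psma7 in B16-RI went from 0.28 to -0.0002, and 36 of 90 differences from B16 turned sign. The cause of these moves was not tested. Signal over background limited Psma2, Psmd3, Psmd8, Psmd9, Psmd14, Psme1 and Psmf1 to bounds or to no comparison.

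Counts of members above 1.5-fold, 0 in each comparison as reported, became 1 in B16-RI under deposited values, median scaling and 75th percentile scaling (Psmd7 each time), 1 without a detection filter and 1 at a fold limit set lower than 1.5. In B16-RII the count became 1 under quantile, median and 75th percentile scaling and without a filter (Psme3 each time), and 4 at the lower limit. In B16-RIIL it became 1 under deposited values and quantile normalization (Psmd7), 2 under median and 75th percentile scaling (Psmd7 and Psme3), 2 without a filter and 1 at the lower limit. Between B16-RIIL and B16-RII it became 2 without a filter. Counts below became 4 without a filter and 1 at the lower limit in B16-RI. In B16-RII they became 2 under quantile, median and 75th percentile scaling (Psmb7 beside Psme2), 4 without a filter (Psmd3, Psmd8, Psmd9 and Psmd14, no longer Psme2), 0 at 2-fold and 2 at the lower limit. In B16-RIIL they became 3 under quantile normalization (Psmd12 added), quantile normalization within probe sets (Psma3 added), and median and 75th percentile scaling (Psmb7 added), 4 without a filter (Psmd3, Psmd8, Psmd14 and Psme2, no longer Psmd11), 0 at 2-fold and 4 at the lower limit. Between B16-RIIL and B16-RII they became 2 under deposited values, 3 without a filter and 4 at the lower limit. Without a filter the list holds all 37 genes, with values below the detection limit. Shares over all genes were counted only on the centred scale, with the detection filter and at 1.5-fold. The counts under other settings and limits therefore have no background beside them. Whether they are many or few for a set of this size was not tested. No paired analysis was possible because the labels give 1 sample per line, and no replicate could be left out for the same reason.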
